A study of Mus musculus with 6 samples.

Results

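The genes of glycolysis and the targets of the hypoxia-inducible factor (HIF) were examined in BV2 cells, an immortalised mouse microglial line, after exposure to recombinant sTREM-1. This protein is the soluble form of triggering receptor expressed on myeloid cells 1. The set held 44 genes, chosen by name and with earlier results of these data known. They were 4 glucose and lactate transporters, 16 glycolytic enzymes and 3 regulators of glycolytic flux. The others were 7 HIF subunits and oxygen-sensing regulators, 12 other HIF target genes and 2 glycogen enzymes. All 44 were among the 46095 gene symbols of the count table. Gene expression was measured by RNA-seq in 3 libraries of untreated BV2 cells (the CON group) and 3 libraries of BV2 cells exposed to sTREM-1 at 1 µg/mL for 6 h (the sTREM-1 group). The labels name no other allele, agent or stimulus, and no arm received another protein, so an effect of adding protein and an effect of sTREM-1 cannot be told apart. Both groups come from 1 cell line, and the sources do not say whether the libraries of a group came from separate cultures, so p-values measure only the spread between these libraries, which may be technical.

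Glycolysis splits glucose into pyruvate in the cytosol, and lactate dehydrogenase turns pyruvate into lactate, which leaves the cell through monocarboxylate transporters. HIF is a dimer of an oxygen-regulated alpha subunit and the constant partner Arnt. Prolyl hydroxylases (Egln genes) mark the alpha subunit for capture by Vhl and degradation, and many glycolytic genes carry HIF response elements. Activated macrophages and microglia are known for raised glycolysis.

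Each library held between 40070633 and 45877107 counts, and 14120 genes passed the filter on low counts. By the quasi-likelihood test of edgeR, with p adjusted after Benjamini and Hochberg, 30.5% of the genes tested differed between the groups at an adjusted p under 0.05, with 16.5% higher and 14.1% lower in the sTREM-1 group. This balance turned with the scaling: 2324 genes were called higher and 1988 lower, against 1977 and 2383 with upper-quartile scaling and 2026 and 2280 by library totals. These differences were small, with a median size of 1.15-fold among the genes called, and the median log2 fold change of all genes tested was -0.0017. Levels are given as CPM, the counts of a gene scaled to a common library size. The general microglial and macrophage markers Itgam, Csf1r, Cd68 and Tyrobp lay between 287 and 769.8 CPM. Of 15 such markers 13 were tested, 5 rose and none fell, and their summed level ran from 3060.1 to 3091 CPM in the CON group and from 3371 to 3434 CPM in the sTREM-1 group. Csf1r, the receptor for colony-stimulating factor 1, rose most among the abundant ones (log2 fold change 0.53 ± 0.023 SE, edgeR adjusted p = 2.9e-17). Aif1 and Sall1 were at 0 in every library, and Tmem119, P2ry12, Cx3cr1 and Fcrls, markers of microglia in the brain, were at 2.18 CPM or less. Other brain cells were marked by 7 neuronal and 5 astrocyte genes, of which 1 (Syn1) and 0 passed the filter. Their summed levels were at most 31.5 CPM for neurons and 0.479 CPM for astrocytes, with Rbfox3, Aqp4 and Aldh1l1 at 0 in every library. The part of these markers in the results below was not tested.

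Most glycolysis and HIF genes were higher in the sTREM-1 group. Of the 42 that passed the filter, 34 rose, 3 fell and 5 were not called. Beside the 16.5% of all genes called higher and the 14.1% called lower, these counts were 81.0% and 7.14% of the 42. Because the set was chosen with earlier results of these data known, comparisons with all genes are not independent of the data. Every sTREM-1 library lay above every CON library for 35 of the 42 genes, against 21.3% of all genes tested, and below for 4, against 19.4%. The median log2 fold change of the 42 genes was 0.29, which is 1.22-fold, and the values ran from -0.24 (Vhl) to 0.66 (Pfkl). At least a 1.2-fold rise was called for 25 genes, and for 5.92% of all genes tested. Within single libraries, the median log2 ratio of the 42 genes to the CON mean was 0.28, 0.30 and 0.29 in sTREM-1 replicates 1, 2 and 3, and between -0.013 and 0.0049 in the CON libraries. The set took up 1.52% ± 0.011 of all counts in the CON group and 1.85% ± 0.019 in the sTREM-1 group (SD, n = 3 each). Counts of a bulk culture cannot tell a change in every cell from a change in the share of cells that carry the transcript. Eno2, the neuronal enolase, with at most 1 count per library, and Adm (adrenomedullin), with 2 to 9, did not pass the filter and are not compared.

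**Figure D1:**
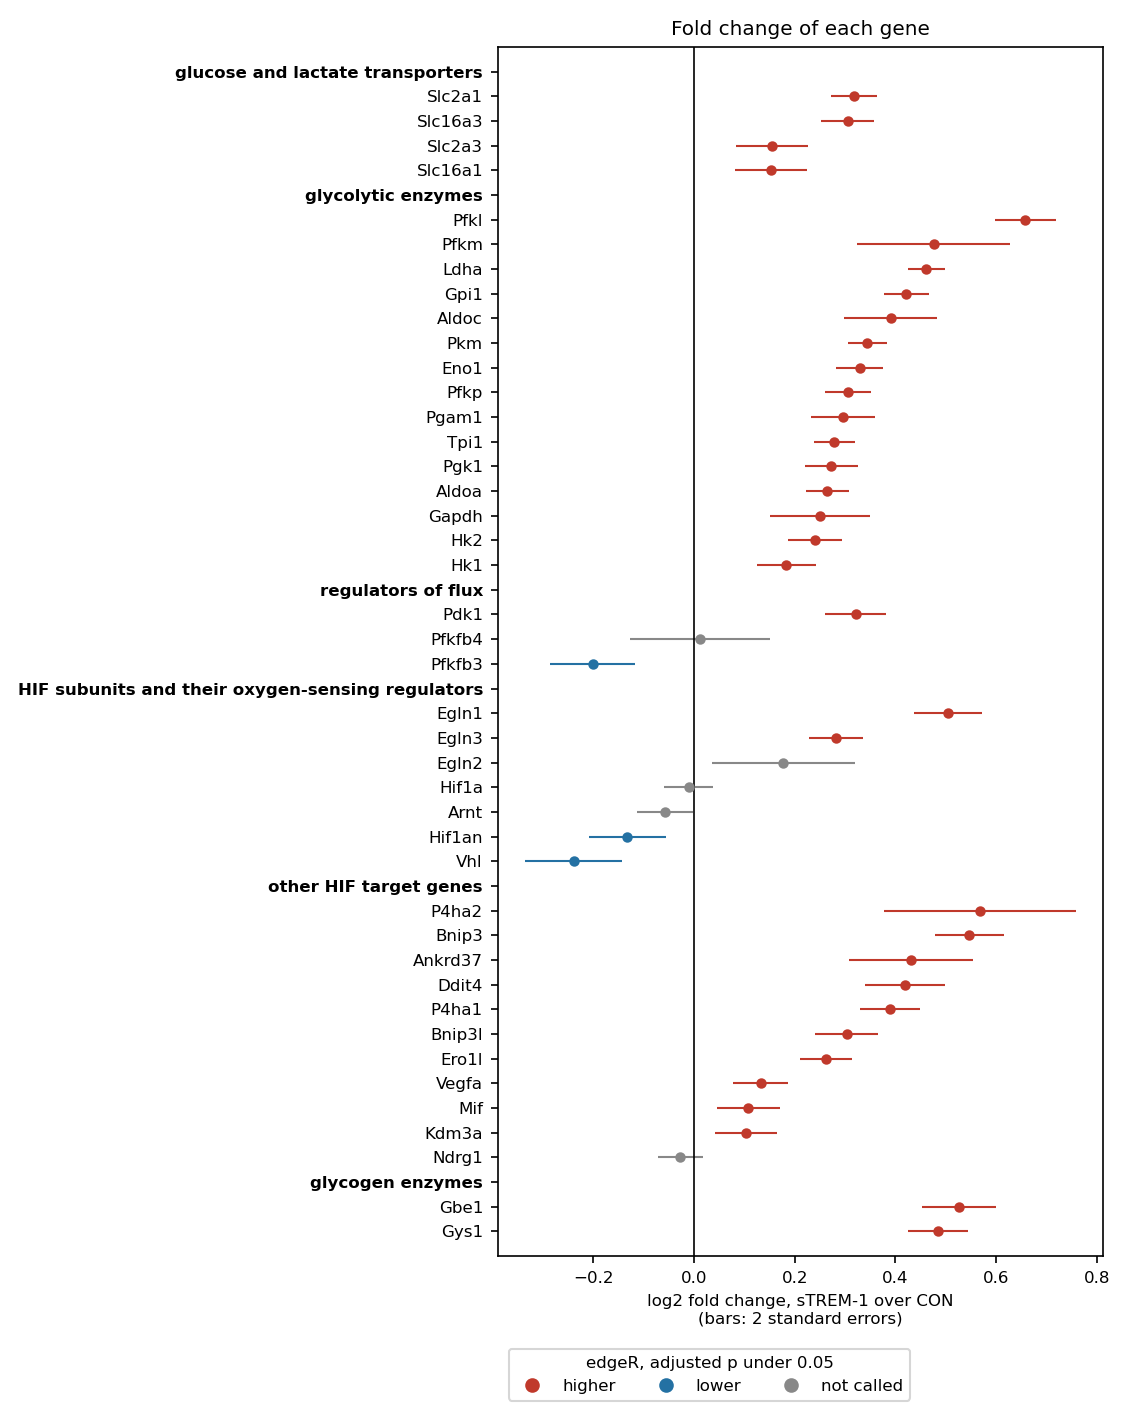
Log2 fold change of the 42 tested genes (horizontal axis, sTREM-1 over CON) by role group (vertical axis), coloured by call. Bars give 2 standard errors, derived from the statistic of edgeR's test. All 15 tested glycolytic enzymes and all 4 transporters lie to the right of 0, while the group of HIF subunits and sensors holds 2 genes called higher and 2 called lower.

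The start regions of 8 of these genes are printed to show whether they hold the core of the HIF response element. The genes were picked by their test results and not by their sequence. In each role group the called gene of smallest p was taken. Where genes were called in the other direction, that of smallest p was added. Their transcripts rose (Slc2a1, Ldha, Pdk1, Egln1, Bnip3, Gys1) or fell (Pfkfb3, Vhl). Each line gives the 250 bases before the RefSeq start site in the mouse build GRCm38.p6, 5′ to 3′ on the strand of the gene. The core was searched as ACGTG and as GCGTG on both strands, so capitals mark these letters or their reverse complements CACGT and CACGC. The palindrome CACGTG holds ACGTG on both strands and counts as 2 matches.
Slc2a1 (chr4:119108495-119108744, plus strand): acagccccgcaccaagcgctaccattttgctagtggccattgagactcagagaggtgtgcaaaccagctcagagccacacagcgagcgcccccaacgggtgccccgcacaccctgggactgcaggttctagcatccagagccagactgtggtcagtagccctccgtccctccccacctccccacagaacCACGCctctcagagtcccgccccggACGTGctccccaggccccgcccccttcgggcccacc
Ldha (chr7:46845554-46845803, plus strand): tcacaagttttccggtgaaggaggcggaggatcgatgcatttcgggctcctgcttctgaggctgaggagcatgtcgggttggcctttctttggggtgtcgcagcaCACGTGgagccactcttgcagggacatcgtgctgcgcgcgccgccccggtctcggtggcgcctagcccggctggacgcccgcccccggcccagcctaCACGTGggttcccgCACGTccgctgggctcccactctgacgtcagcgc
Pdk1 (chr2:71872974-71873223, plus strand): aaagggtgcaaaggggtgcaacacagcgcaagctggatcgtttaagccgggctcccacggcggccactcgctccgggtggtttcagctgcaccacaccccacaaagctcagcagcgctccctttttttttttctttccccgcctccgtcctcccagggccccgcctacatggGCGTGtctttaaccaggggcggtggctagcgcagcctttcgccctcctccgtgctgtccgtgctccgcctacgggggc
Pfkfb3 (chr2:11553930-11554179, minus strand): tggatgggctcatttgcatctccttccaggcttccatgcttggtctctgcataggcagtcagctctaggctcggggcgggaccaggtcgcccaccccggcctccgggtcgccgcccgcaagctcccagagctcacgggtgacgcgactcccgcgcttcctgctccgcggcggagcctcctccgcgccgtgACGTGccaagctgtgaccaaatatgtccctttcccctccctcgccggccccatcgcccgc
Egln1 (chr8:124949255-124949504, minus strand): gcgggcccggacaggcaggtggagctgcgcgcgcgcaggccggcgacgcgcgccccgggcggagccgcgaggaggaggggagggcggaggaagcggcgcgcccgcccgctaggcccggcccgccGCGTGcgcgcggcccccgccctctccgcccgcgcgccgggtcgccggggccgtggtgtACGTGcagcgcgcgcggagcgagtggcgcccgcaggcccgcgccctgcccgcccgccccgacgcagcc
Vhl (chr6:113623744-113623993, plus strand): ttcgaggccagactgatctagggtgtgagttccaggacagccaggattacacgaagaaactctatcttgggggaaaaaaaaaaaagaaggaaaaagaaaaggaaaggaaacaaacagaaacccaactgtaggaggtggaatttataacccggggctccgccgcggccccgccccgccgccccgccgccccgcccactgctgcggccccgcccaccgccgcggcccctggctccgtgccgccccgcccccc
Bnip3 (chr7:138909507-138909756, minus strand): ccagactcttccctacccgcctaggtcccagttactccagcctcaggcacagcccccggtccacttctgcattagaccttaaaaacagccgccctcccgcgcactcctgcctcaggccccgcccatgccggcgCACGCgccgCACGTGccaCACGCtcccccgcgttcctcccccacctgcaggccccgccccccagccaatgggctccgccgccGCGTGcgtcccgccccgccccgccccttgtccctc
Gys1 (chr7:45434589-45434838, plus strand): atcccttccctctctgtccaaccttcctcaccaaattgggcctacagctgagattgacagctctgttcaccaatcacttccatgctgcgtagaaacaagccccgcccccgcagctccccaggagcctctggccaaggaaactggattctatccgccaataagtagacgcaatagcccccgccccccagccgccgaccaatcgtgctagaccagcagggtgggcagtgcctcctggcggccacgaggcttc

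Ldha and Bnip3 each held 5 matches in this window, Slc2a1 and Egln1 2, and Pdk1 and Pfkfb3 1, while Vhl and Gys1 held none. As a check of orientation, the last 30 bases of the reference sequence holding each window were sought near the start of the gene's GENCODE transcripts. They were found for 7 of the 8 genes and not for Ldha. The end of the printed window itself was not compared with a transcript start. A window was given for 41 of the 44 genes, and Slc2a3, Bnip3l and Ndrg1 were not matched. At least 1 core match stood in 29 of the 41 windows (70.7%), compared with 38.6% of the windows of all 27025 genes given and 56.2% of the 10093 tested genes with a window. ACGTG alone stood in 46.3% of the 41 windows, in 16.6% of all windows and in 22.1% of those of tested genes. GCGTG stood in 51.2%, 28.2% and 44.8% of them. The median GC content of the 41 windows was 60.0%, beside 59.6% for tested genes and 52% for all genes. At least 1 match stood in 23 of 32 windows of genes that rose (71.9%) and in 5 of 7 windows of tested genes that did not rise (71.4%). At least 2 matches stood in 17 of the 32 (53.1%) and in 2 of the 7 (28.6%). These shares were not tested against each other. The set was chosen by name and holds known HIF targets, so its shares beside those of other genes are not a result of these data. The 2 glycogen enzymes, which both rose, had none, and Hif1a, which was not called, had 3. A match of these letters is a description of the window and not evidence of a bound site.

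All 4 transporters rose, while 16.5% of all genes tested did. Slc2a1 encodes GLUT1, the main glucose carrier of many cell types. It was at 485, 504 and 487 CPM in CON replicates 1 to 3 and at 601, 615 and 624 CPM in the sTREM-1 libraries. Every sTREM-1 library lay above every CON library, and the log2 fold change was 0.32 ± 0.023 (SE, edgeR adjusted p = 3.7e-12). Slc16a3, the lactate exporter MCT4, went from 235, 238 and 235 CPM to 288, 285 and 301 CPM. Its libraries did not overlap either, with a log2 fold change of 0.30 ± 0.026 (adjusted p = 1.3e-10). Smaller rises were found for Slc2a3 (GLUT3) and Slc16a1 (MCT1), at 0.15 ± 0.036 each (adjusted p = 0.0013 and 0.0014). Slc2a3 lay at 73.5, 77.0 and 73.9 CPM in the CON group and at 83.0, 85.2 and 81.5 CPM in the sTREM-1 group. Per kilobase of exon, Slc2a1 made up 88.9% of the GLUT1 and GLUT3 transcript level in the CON group and 89.9% in the sTREM-1 group.

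The glycolytic enzymes rose without exception among the 15 tested, beside 16.5% of all genes tested. Their log2 fold changes ran from 0.18 (Hk1) to 0.66 (Pfkl), with a median of 0.31. Together they took 1.01% ± 0.0048 of all counts in the CON group and 1.27% ± 0.024 in the sTREM-1 group (SD, n = 3), a ratio of 1.25. Pfkl encodes the liver-type subunit of phosphofructokinase, the enzyme of the committed step. It was at 98.7, 98.7 and 95.4 CPM in the CON libraries and at 154, 152 and 156 CPM in the sTREM-1 libraries. The groups were far apart beside the spread within each, at 0.66 ± 0.030 (adjusted p = 1.9e-16), and Pfkl ranked 12 by p among all genes tested. Ldha, which makes lactate from pyruvate, was at 1360.1, 1389 and 1363 CPM in the CON group and at 1892, 1884 and 1887 CPM in the sTREM-1 group. Its log2 fold change was 0.46 ± 0.018 (adjusted p = 7.4e-18), rank 6 of all genes tested. Gpi1, which converts glucose 6-phosphate to fructose 6-phosphate, stood at 679, 684 and 692 CPM against 898, 904 and 952 CPM, a log2 fold change of 0.42 ± 0.023.

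As counted, Pkm, the pyruvate kinase that forms pyruvate, had the highest level of the set per kilobase of exon in both groups. The level of Gapdh, described below, is less certain, and so is its rank. Pkm held 1258 CPM per kb in the CON group and 1597 in the sTREM-1 group. Its libraries lay at 3275, 3237 and 3297 CPM in the CON group and at 4133, 4018 and 4299.8 CPM in the sTREM-1 group, without overlap (0.34 ± 0.019, adjusted p = 1.6e-14). Tpi1 interconverts the triose phosphates. It had 986, 1019 and 982 CPM in the CON group against 1197, 1208 and 1218 CPM in the sTREM-1 group (0.28 ± 0.020). The remaining enzymes outside hexokinase rose by 0.27 (Aldoa, Pgk1) to 0.48 (Pfkm), apart from Gapdh, described below.

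**Figure D2:**
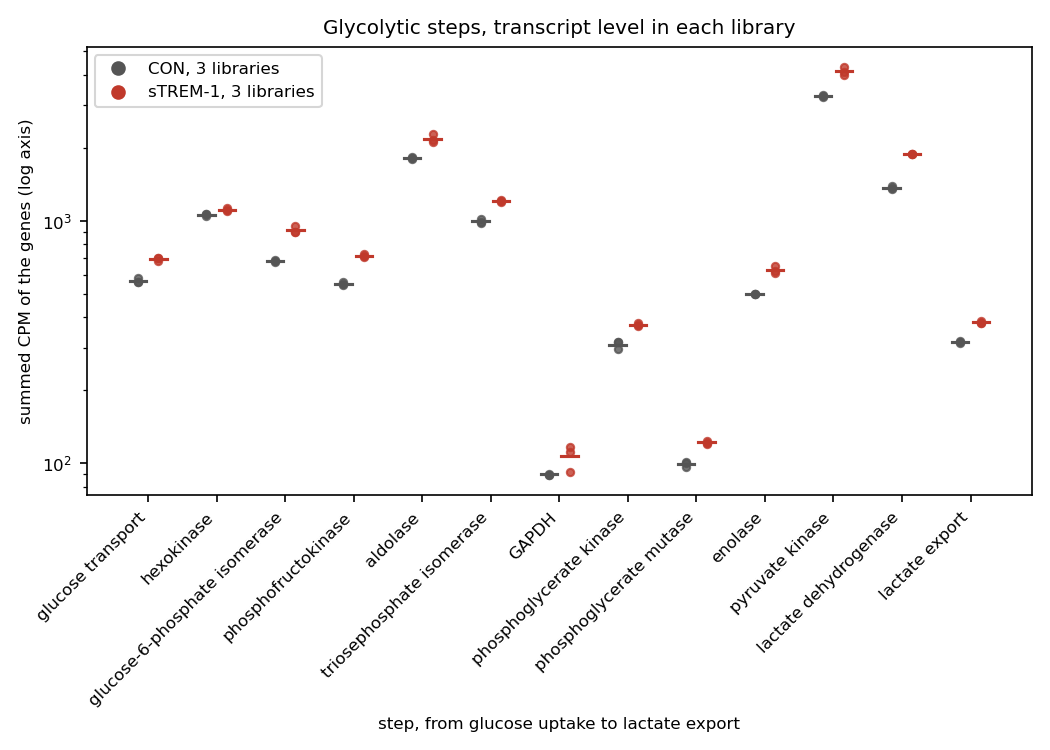
Summed CPM (vertical log axis) of the genes of each step from glucose uptake to lactate export (horizontal axis), with 1 point per library and a line at the mean of each group of 3. The step of lactate dehydrogenase shows the widest separation, at a ratio of 1.38, and that of hexokinase the narrowest, at 1.05.

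Summed by step, the ratio of the sTREM-1 to the CON mean was 1.23 for glucose transport, 1.34 for Gpi1, 1.301 for phosphofructokinase, 1.204 for aldolase and 1.38 for lactate dehydrogenase. Hexokinase, the entry step, stood lowest at 1.05. Hk1 and Hk2 rose (log2 fold change 0.18 and 0.24), but most of the hexokinase level per kilobase came from Hk3, a gene outside the set. Hk3 was at 697, 689 and 673 CPM in the CON group and 678, 664 and 689 CPM in the sTREM-1 group, overlapping, with a fold between 0.957 and 1.02 (2 SE). Its share of the hexokinase level was 74.2% in the CON group and 71.0% in the sTREM-1 group. Among the phosphofructokinases, Pfkp (platelet type) made up the most, at 76.4% of the level per kilobase in the CON group and 72.2% in the sTREM-1 group. The share of Pfkl was 20.1%, 19.9% and 18.9% in the CON libraries and 23.7%, 23.6% and 23.6% in the sTREM-1 libraries, with no overlap. An exact permutation test of 3 against 3 libraries cannot give a two-sided p below 0.1, and no other test of these shares was made.

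Gapdh, Eno1, Pgk1 and Mif share most of their 50-base words with other genes, so their values are less certain, since how shared reads were assigned is not given in the sources used here. Gapdh, the glyceraldehyde 3-phosphate dehydrogenase often used as a reference gene, was at 89.5, 89.8 and 90.7 CPM in the CON group and at 117, 111 and 92.4 CPM in the sTREM-1 group. The third sTREM-1 library lay only just above the CON libraries, and the log2 fold change was 0.25 ± 0.050 (edgeR adjusted p = 2.2e-04). With DESeq2 the log2 fold change of Gapdh was 0.245 ± 0.099 (Wald test, adjusted p = 0.043), nearer the threshold. Of the 50-base words in its transcripts, 82.5% also occurred in another gene, and 69 rows shared at least 10% of the words and are called copies here, whatever their likeness beyond that. These copies held 56.2% to 59.1% of the joint counts in 5 libraries and 64.9% in sTREM-1 replicate 3. With the copies added, Gapdh rose by 0.32 ± 0.032 (adjusted p = 2.2e-09). Eno1, the ubiquitous enolase, was at 500, 501 and 500 CPM against 623, 612 and 650 CPM in the sTREM-1 group (0.33 ± 0.023, adjusted p = 2.4e-12). Its 2 copies, Eno1b and Gm4735, held 44.4% to 44.9% of the joint counts in every library, and the log2 fold change with them was 0.32. For Pgk1, 68.0% of the words occurred in another gene, and for Mif 51.1%. The counts in copies were at most 5.14% of the joint counts for these 2 genes and the other 5 with a copy, which does not show how many shared reads were dropped.

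**Figure D3:**
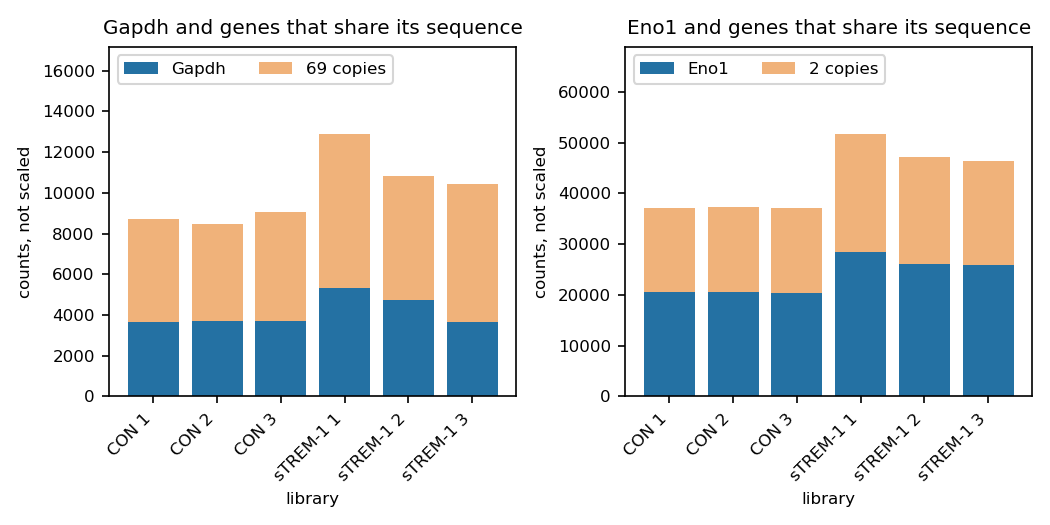
Unscaled counts (vertical axis) of Gapdh and Eno1 and of the genes that share at least 10% of their 50-base words (copies), stacked, in each of the 6 libraries (horizontal axis). The copies hold more than the gene itself for Gapdh, most of all in sTREM-1 replicate 3 at 64.9%, and a steady 44.4% to 44.9% for Eno1.

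The regulators of flux moved in different directions. Pdk1, the kinase that restrains pyruvate dehydrogenase and so keeps pyruvate out of the mitochondrial cycle, was at 136, 143 and 134 CPM in the CON group and 172, 175 and 169 CPM in the sTREM-1 group. All its sTREM-1 libraries lay above all CON libraries, with a log2 fold change of 0.32 ± 0.030 (adjusted p = 1.0e-09). Pfkfb3, which makes fructose 2,6-bisphosphate, an activator of phosphofructokinase, was at 53.6, 54.3 and 54.6 CPM in the CON group and at 48.0, 45.7 and 47.5 CPM in the sTREM-1 group. All sTREM-1 libraries lay below all CON libraries, and it fell by 0.20 on the log2 scale (SE 0.042, adjusted p = 3.7e-04). Its relative Pfkfb4 ranged from 17.9 to 20.1 CPM over all 6 libraries, with a log2 fold change of 0.01 ± 0.069 (adjusted p = 0.93) and a fold between 0.916 and 1.11 (2 SE).

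The genes of the HIF pathway itself did not move together. Hif1a, the alpha subunit, was at 350, 353 and 351 CPM in the CON group and 356, 342 and 348 CPM in the sTREM-1 group, overlapping. Its log2 fold change was -0.01 ± 0.024 (adjusted p = 0.79), an interval of 0.960 to 1.03-fold (2 SE). HIF protein was not measured here, and its level is set largely after translation. Arnt was at 170, 166 and 172 CPM against 163, 162 and 163 CPM, with a log2 fold change of -0.06 ± 0.028 that missed the threshold (adjusted p = 0.12). With scaling by library totals it passed (-0.07, adjusted p = 0.042), as it did with upper-quartile scaling (-0.08, adjusted p = 0.031).

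Among the prolyl hydroxylases, Egln1 (PHD2), the main oxygen sensor and itself a HIF target, rose from 107, 112 and 108 CPM to 150, 164 and 151 CPM. The libraries were far apart (0.50 ± 0.034, adjusted p = 5.8e-13). Egln3 (PHD3), also a HIF target, rose from 182, 181 and 179 CPM to 217, 224 and 218 CPM (0.28 ± 0.027, adjusted p = 1.2e-09). Egln2 (PHD1) was at 16.0, 16.8 and 17.7 CPM against 18.9, 19.5 and 18.8 CPM, with every sTREM-1 library above every CON library, and missed the threshold (0.18 ± 0.071, adjusted p = 0.059). The other brakes on the alpha subunit in the set, Vhl and Hif1an, fell. Vhl, the substrate receptor of the ubiquitin ligase, was at 44.2, 41.2 and 41.6 CPM in the CON group and 35.8, 34.8 and 37.0 CPM in the sTREM-1 group. It fell by 0.24 on the log2 scale (SE 0.048, adjusted p = 2.5e-04). Hif1an, the asparaginyl hydroxylase that blocks coactivator binding, was at 86.6, 87.2 and 87.6 CPM against 74.9, 83.7 and 80.0 CPM (-0.13 ± 0.038, adjusted p = 0.0077). Its call rested on sTREM-1 replicate 1, the lowest library, without which the log2 fold change was -0.09 and the adjusted p 0.10.

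Of the 11 other HIF target genes tested, 10 rose (90.9%, beside 16.5% of all genes tested) and 1, Ndrg1, was not called. Bnip3 and Bnip3l are mitochondrial receptors for mitophagy. Bnip3 was at 250.1, 283 and 253 CPM in the CON group and at 379, 401 and 367 CPM in the sTREM-1 group, without overlap (0.55 ± 0.035, adjusted p = 1.9e-13). Bnip3l was at 145, 154 and 143 CPM against 180.4, 188 and 176 CPM (0.30 ± 0.031). P4ha1, a subunit of the collagen prolyl 4-hydroxylase, rose from 159, 154 and 149 CPM to 197, 208 and 201 CPM (0.39 ± 0.030, adjusted p = 1.1e-11), and its paralogue P4ha2 by 0.57 ± 0.095 from a level near 11 CPM. Ddit4 (REDD1), an inhibitor of mTORC1, was at 76.5, 78.4 and 68.9 CPM in the CON group and at 99.2, 101.7 and 98.3 CPM in the sTREM-1 group (0.42 ± 0.040). Ankrd37, a small ankyrin repeat gene, was at 21.0, 20.3 and 22.3 CPM against 29.6, 28.9 and 27.2 CPM (0.43 ± 0.061). Ero1l, the oxidase of disulphide formation in the endoplasmic reticulum, rose from 963, 1024 and 996 CPM to 1155, 1259 and 1164 CPM (0.26 ± 0.026).

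The smallest rises among the HIF targets were those of Vegfa, the angiogenic growth factor (0.13 ± 0.027), Mif, the macrophage migration inhibitory factor (0.11 ± 0.031), and Kdm3a, a histone demethylase (0.10 ± 0.031). The last pair depended on single libraries. Mif lost its call without CON replicate 3 (0.07, edgeR adjusted p = 0.12), and Kdm3a without CON replicate 2 (0.08, adjusted p = 0.083) or sTREM-1 replicate 2 (0.09, adjusted p = 0.053). Ndrg1, one of the more abundant HIF targets here, lay between 576 and 597 CPM in the CON group and between 565 and 585 CPM in the sTREM-1 group, with a fold between 0.951 and 1.01 (2 SE, adjusted p = 0.41).

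Both glycogen enzymes of the set rose, beside 16.5% of all genes tested, and by more than the median of the set. Gys1, glycogen synthase, was at 119, 121 and 123 CPM in the CON group and 166, 168 and 174 CPM in the sTREM-1 group (0.48 ± 0.030, adjusted p = 1.2e-13). Gbe1, the branching enzyme, was at 77.8, 81.1 and 87.0 CPM against 116, 122 and 117 CPM (0.53 ± 0.037, adjusted p = 2.1e-12). The groups did not overlap for either gene.

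**Figure D4:**
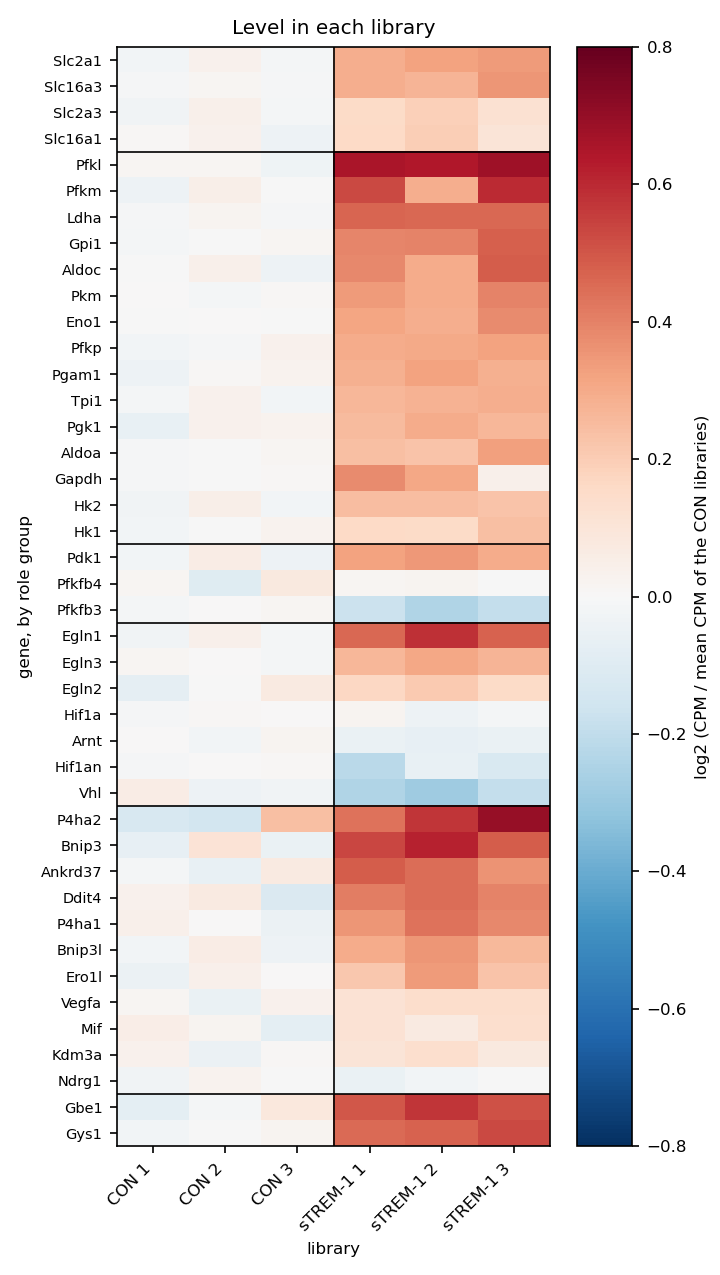
Level of each of the 42 tested genes (rows, by role group) in each library (columns), as log2 of CPM over the mean CPM of the CON libraries. The 3 sTREM-1 columns resemble each other, with Gapdh in sTREM-1 replicate 3 near the CON level at 92.4 CPM.

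Genes of the same pathways outside the set were counted for comparison, in lists also chosen with earlier results of these data known. Of 39 further glycolysis and gluconeogenesis genes 20 were tested, and 3 rose and 1 fell (15% and 5%, beside 16.5% and 14.1% of all genes tested), and their median log2 fold change was 0.02. The genes that rose were Pgm2, a phosphoglucomutase between glycogen and glycolysis (0.54 ± 0.030), Pdk3, another pyruvate dehydrogenase kinase (0.49 ± 0.069), and Pck2, the mitochondrial phosphoenolpyruvate carboxykinase (0.23 ± 0.033). Pgam5, a mitochondrial phosphatase, fell by 0.12. All 14 further HIF pathway genes were tested, and 3 rose and 3 fell, which is 21.4% in each direction and not far from the shares of all genes. Among the latter were Eloc, listed under its older symbol Tceb1, and Cul2, both partners of Vhl in its ligase, which fell by 0.25 and 0.13 on the log2 scale. Elob (listed as Tceb2) and Rbx1, also subunits of that ligase, were not called. Their log2 fold changes were -0.08 each (edgeR adjusted p = 0.11 and 0.29). Os9, Crebbp and Ep300 rose by 0.13, 0.13 and 0.08. Epas1, the second HIF alpha subunit, had a log2 fold change of -0.02 ± 0.047 (adjusted p = 0.76), and Hif1a made up 87.7% of the 2 subunits' level per kilobase in the CON group and 87.8% in the sTREM-1 group.

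Of 43 further hypoxia-inducible genes 36 were tested, and 19 rose and 4 fell, with a median log2 fold change of 0.12. These counts were 52.8% and 11.1% of the 36, beside 16.5% and 14.1% of all genes tested. The share that fell was thus near that of all genes. Plod2, the lysyl hydroxylase of collagen, rose by 0.50 ± 0.025, and Ak4, a mitochondrial adenylate kinase, by 0.44 ± 0.036. P4hb, the partner subunit of P4ha1 and P4ha2, and Hmox1, haem oxygenase, each rose by 0.26. Plin2, the coat protein of lipid droplets, fell from 1334 ± 26.5 to 1060.5 ± 27.5 CPM (SD, n = 3; log2 fold change -0.33, adjusted p = 3.4e-13). The others that fell were Rbpj, Wsb1 and Gyg (glycogenin), with log2 fold changes of -0.13, -0.10 and -0.09. Car9, a classical hypoxia marker, was under 1 CPM in every library, with a log2 fold change of -0.38 ± 0.40 (adjusted p = 0.53).

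**Figure D5:**
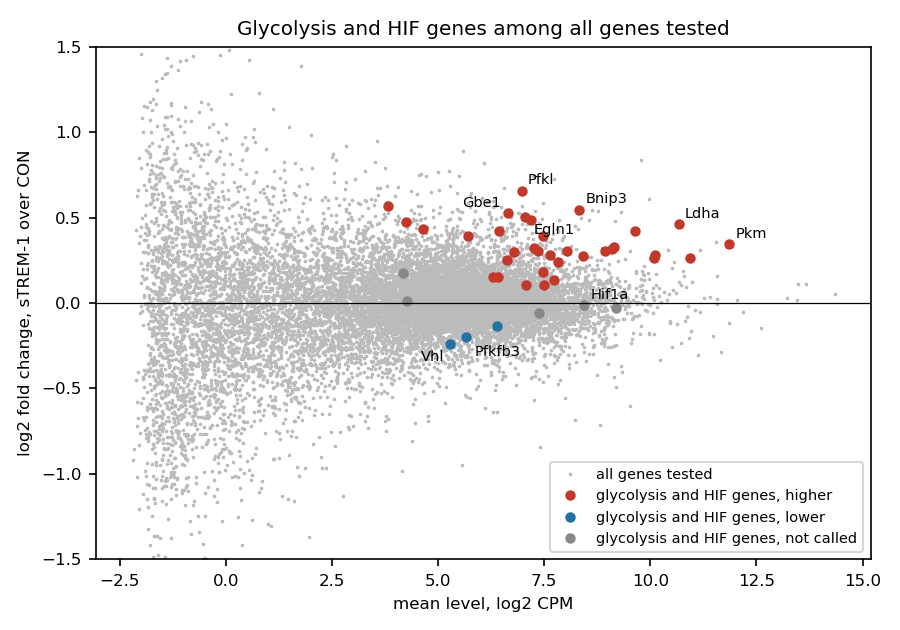
Log2 fold change (vertical axis, sTREM-1 over CON) against mean level (horizontal axis, log2 CPM) for the 14120 genes tested (grey) and the 42 glycolysis and HIF genes (coloured by call). The vertical axis stops at 1.5 in each direction, beyond which 48 genes lie. The 34 genes called higher lie above 0, many of them above most grey points of the same level.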

How the data were processed

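RNA-seq libraries of BV2 cells, 3 per group, were analysed from the deposited table of raw read counts per gene symbol. Per the labels, total RNA was extracted with Trizol and libraries followed standard Illumina protocols. The submitters' processing notes name HISAT2 2.0.4 and the human builds hg19 and GRCh38, while the symbols are those of mouse genes. The role of these builds, the annotation and the strand setting are not given in the sources used here, so reads of overlapping antisense genes cannot be told apart. The study's methods state another number of replicates than the 3 per group in the labels and in the table.

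Low counts were removed by filterByExpr at a minimum of 10, libraries were scaled by TMM, and edgeR 4.0.16 was run in R 4.3.3 (quasi-likelihood), and p-values were adjusted by Benjamini and Hochberg over all 14120 genes tested. The test gives no standard error, so those of edgeR fold changes were derived as the absolute log2 fold change over the square root of F. CPM were computed from the deposited counts with the TMM-scaled library sizes, and levels between genes are per kilobase of GENCODE M21 exons. Copies were genes that share at least 10% of a member's 50-base words. DESeq2 1.42.0, limma-voom 3.58.1, other scalings, filters and thresholds, a replicate block and leaving out each library were alternatives. Adding the copies was chosen after seeing the data. The fit was tested on simulated data before use. It recovered 59% of simulated 1.2-fold changes and 86% of 1.5-fold changes, and 6.45% of its calls were false. Far fewer genes were changed in the simulation than were called in the data, so these rates need not hold for the data.

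Libraries of one group differed by 3.46 to 5.05 times the counting noise per gene (chi-square per gene), so no pair was counted as 1 sample. Values per library were given for the called genes of smallest p in each role group (at most 6 enzymes, 6 other HIF targets and 3 elsewhere) and for genes called against most of their group. From each further list at most 4 genes per direction were named. Other genes given with values (Gapdh, Hk3, Epas1, Car9, Csf1r and genes not called) were chosen after their values were seen. The genes and lists were chosen with earlier results of these data known. Some marker results are not reported here. Promoter windows are from RefSeq, GRCm38.p6, with Ero1l matched as Ero1a, and the first listed window was used per gene.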

Additional observations from a re-analysis of the deposited data

How the results depend on the processing

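Over 15 alternative fits, 620 of 630 refits of single genes of the set kept their direction and side of the threshold, and 36 of 42 genes never changed either. Calls changed for Arnt, Hif1an, Kdm3a and Mif, given above. The sign of 2 genes that were not called changed: the log2 fold change of Pfkfb4 was -0.0047 by library totals, -0.0090 by upper quartile and -0.035 to 0.050 with 1 library left out, and that of Hif1a -0.028 to 0.0016 with 1 library left out. The number of genes of the set called stayed between 36 and 37 when 1 library was left out and was 25 with at least a 1.2-fold change, when 0 genes were called lower. Their median log2 fold change was 0.296 with the copies added, 0.273 by library totals, 0.268 by upper quartile, and 0.279 to 0.296 with 1 library left out. Across all genes 4312 were called, against 4007 by DESeq2, 4257 by limma-voom and 3608 to 3863 with 1 library left out. Whether the replicate numbers pair the libraries cannot be decided here. The deviations of a CON and an sTREM-1 library with equal numbers correlated at 0.0592 to 0.0908, but libraries with unequal numbers were not compared. With a replicate block 4613 genes were called, against 4312 without it. Of the 4613 genes, 37 were in the set, with 34 higher and 3 lower. Counts of Gapdh and Eno1 depend on how reads shared with copies were assigned, and 3 libraries per group limit the precision of each fold change to the standard errors given.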
